A study of Mus musculus with 6 samples.

Results

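Npr1, Npr2 and Pde9a encode proteins that make or destroy cyclic GMP downstream of natriuretic peptides, and their transcripts were measured in the kidneys of mice with a heart muscle transgene. The genes were taken by symbol from the deposited table, which lists 7373 genes, and all 3 were present. Bulk RNA sequencing on an Illumina HiSeq 2500 covered 6 kidney samples of adult male FVB/N mice. The 3 transgenic samples carried CryAB with the R120G mutation, driven by the α-myosin heavy chain promoter, which is active in heart muscle cells; CryAB encodes a small chaperone. These mice were sampled before heart failure began and, per the column names, before ischemia-reperfusion injury. The 3 control samples came from mice matched for age and sex. All were of the same strain, and no label ties a sample to an animal by number, so the p-values reflect only how these samples vary, which may be technical in part.

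Atrial and B-type natriuretic peptides are hormones released by the stretched heart. They bind the receptor NPR-A, encoded by Npr1, a membrane protein whose inner end is a guanylyl cyclase. In the kidney this receptor raises filtration and salt excretion and restrains renin release. C-type natriuretic peptide acts on the sister receptor NPR-B, encoded by Npr2. The cyclic GMP that both receptors make is hydrolysed by phosphodiesterases, among them PDE9A, which has a high affinity for cyclic GMP and acts in heart muscle on the pool made by natriuretic peptide receptors.

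Neither receptor gene nor Pde9a differed detectably between transgenic and control kidneys. Each gene's 3 transgenic values overlapped its 3 control values. The transcript of Npr2 was the most abundant of the 3 per transcript length in every library. All 3 genes were lowest in control 3, as were 32.6% of all genes tested.

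The receptor transcripts are shown first, because related genes can share reads. Npr1 (gene ID 18160) lies on chromosome 3, 90450591 to 90465928, and Npr2 (gene ID 230103) on chromosome 4, 43629015 to 43651437, both in GRCm38.p6, the assembly that mm10 names. Their longest protein-coding transcripts in GENCODE vM21 were 4066 and 3660 bases long. The longest run that both hold was 18 bases, in exon 19 of 22 of each transcript and in the coding part. It is shown with 30 bases on each side, 5′ to 3′ along the transcript, and capitals mark the shared run. The Npr1 stretch lies at chr3:90455105-90455182 on the minus strand, and the Npr2 stretch at chr4:43650233-43650310 on the plus strand.
Npr1: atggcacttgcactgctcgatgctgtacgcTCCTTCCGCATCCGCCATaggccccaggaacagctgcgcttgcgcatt
Npr2: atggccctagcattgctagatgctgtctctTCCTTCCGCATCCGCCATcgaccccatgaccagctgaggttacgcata
Of the 78 bases in each stretch, 62 were identical at the same place. No window of 75 bases of the Npr2 transcript occurred in a transcript of another gene. For Npr1, 188 of 3992 such windows (4.71%) occurred in the antisense transcript Gm16048. For Pde9a, 84 of 2015 windows (4.17%) occurred in the antisense transcript AC166172.5. These windows cover the longest protein-coding transcript only. Over all annotated exons, antisense genes overlapped 559 of 4783 bases of Npr1 (Gm16048) and 266 of 4667 bases of Npr2 (Gm12473). For Pde9a they overlapped 157 (AC166172.5) and 138 (AC166172.6) of 3538 bases. The use of strand in counting is not given in the sources used here. Reads from a gene and from an antisense partner therefore cannot be told apart in these windows and exon bases.

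The windows around the annotated starts of both receptor genes are shown, because their transcripts are the pair compared here. RefSeq (GRCm38.p6) gives 250 bases before and 50 after 1 annotated start each for Npr1 and Npr2, so 2 of the 3 genes were matched. The Npr2 window lies inside the gene's span, which begins at 43629015, so the outermost start of Npr2 is not covered. Capitals mark the letters GGGCGG, the core of a GC box, found on either strand.
Npr1, chr3:90465817-90466116, minus strand: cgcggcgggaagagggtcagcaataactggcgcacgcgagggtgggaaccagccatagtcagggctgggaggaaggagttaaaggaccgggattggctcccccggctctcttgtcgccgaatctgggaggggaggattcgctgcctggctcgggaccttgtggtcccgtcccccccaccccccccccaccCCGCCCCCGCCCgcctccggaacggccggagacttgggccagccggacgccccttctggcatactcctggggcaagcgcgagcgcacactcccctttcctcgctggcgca
Npr2, chr4:43631685-43631984, plus strand: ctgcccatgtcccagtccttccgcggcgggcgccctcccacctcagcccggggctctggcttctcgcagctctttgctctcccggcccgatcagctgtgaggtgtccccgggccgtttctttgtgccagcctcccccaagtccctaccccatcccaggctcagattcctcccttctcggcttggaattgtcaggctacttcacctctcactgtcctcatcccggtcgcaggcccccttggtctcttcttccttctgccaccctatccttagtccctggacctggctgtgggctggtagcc
The Npr1 window held 2 matches, side by side without overlap, and the Npr2 window held 0. A match was present in 35.7% of the 32851 windows in the table. Neither window held TATAAA on either strand, which 13.6% of windows did. The GC content was 69.7% for Npr1 and 64.0% for Npr2, against a median of 52.7% over all windows.

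Summed estimated counts per library ran from 23.5 to 47.6, in units of 1000000. Control 3 lists every one of the 178 X and Y genes at 0 and no other gene at 0, so these genes were kept out of the test. Markers of the labelled tissue were present: all 5 proximal tubule markers were listed, summing to between 10494 and 11779 CPM (counts per 1000000 counts) in transgenic kidneys and between 10501 and 11108 CPM in control kidneys. The 6 heart muscle markers were not found by symbol among the listed genes, so they were not analysed here. The single gene called was Ren1, which encodes renin, at 746, 728 and 655 CPM in transgenic kidneys 1, 2 and 3, against 298, 344 and 252 CPM in control kidneys 1, 2 and 3 (log2 fold change 1.25, adjusted p = 0.0359, edgeR). That call was 1 of 7194 genes, or 0.0139%. No gene was called without any 1 of the 3 transgenic kidneys or without control 1.

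Npr1, the receptor for atrial and B-type peptides, was read with 1083, 1153 and 1214 estimated counts in transgenic kidneys 1, 2 and 3, and with 1208, 1522 and 1446 in control kidneys 1, 2 and 3. Scaled by library size these were 38.0, 50.4 and 38.5 CPM in transgenic kidneys, against 44.5, 43.4 and 31.1 CPM in control kidneys. Transgenic kidney 2 was the highest library and control 3 the lowest, and the other 4 lay between 38.0 and 44.5 CPM with both controls above both transgenic kidneys. The means were 42.3 ± 7.02 CPM (SD, n = 3) in transgenic kidneys and 39.6 ± 7.44 CPM (SD, n = 3) in control kidneys. The log2 fold change was 0.10 ± 0.17 (SE), which missed the threshold of 0.05 (adjusted p = 0.997 from edgeR, quasi-likelihood, Benjamini-Hochberg). The 95% interval of the ratio of transgenic to control ran from 0.822 to 1.39. The sign depended on single libraries: the log2 fold change was -0.05 without transgenic kidney 2 and -0.06 without control 3.

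Npr2, the receptor for C-type peptide, was read with 1664, 1810 and 1847 estimated counts in transgenic kidneys 1, 2 and 3, and with 1481, 2307 and 1940 in control kidneys 1, 2 and 3. These were 58.4, 79.2 and 58.6 CPM in transgenic kidneys, against 54.5, 65.7 and 41.7 CPM in control kidneys. Transgenic kidney 2 was again the highest and control 3 the lowest, while control 2 lay above transgenic kidneys 1 and 3, so the groups overlapped. The means were 65.4 ± 11.9 CPM (SD, n = 3) in transgenic kidneys and 54.0 ± 12.03 CPM (SD, n = 3) in control kidneys. The log2 fold change of 0.28 ± 0.18 (SE) missed the threshold (adjusted p = 0.997, edgeR). The 95% interval of the ratio ran from 0.907 to 1.62. By size alone, 95.5% of the 7194 genes differed by less than Npr2 in either direction, against 60.5% for Npr1 and 78.8% for Pde9a. Leaving out transgenic kidney 2 gave a log2 fold change of 0.12, leaving out control 3 gave 0.12 and leaving out control 2 gave 0.44.

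**Figure D1:**
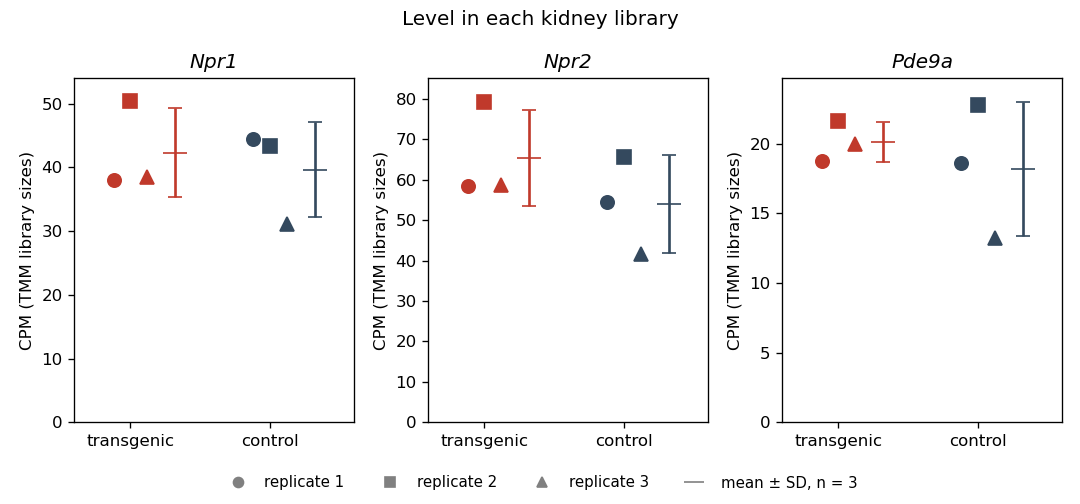
CPM (y axis, from 0) of Npr1, Npr2 and Pde9a in the transgenic and control kidneys. Points are libraries, shaped by replicate number, and bars are mean ± SD (n = 3); in each gene the groups overlap and control 3 is lowest, at 31.1, 41.7 and 13.2 CPM.

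Pde9a (gene ID 18585; chromosome 17, 31386105 to 31476309, GRCm38.p6), which encodes the phosphodiesterase, was read with 535, 495 and 628 estimated counts in transgenic kidneys 1, 2 and 3, and with 505, 800.4 and 614 in control kidneys 1, 2 and 3. These were 18.8, 21.7 and 19.9 CPM in transgenic kidneys, against 18.6, 22.8 and 13.2 CPM in control kidneys. The transgenic values lay close together, and the control values included both the highest and the lowest library. The means were 20.1 ± 1.44 CPM (SD, n = 3) in transgenic kidneys and 18.2 ± 4.81 CPM (SD, n = 3) in control kidneys. The log2 fold change was 0.15 ± 0.19 (SE) and missed the threshold (adjusted p = 0.997, edgeR), with a 95% interval of the ratio from 0.820 to 1.495. Without control 3 the log2 fold change was -0.04, and without control 2 it was 0.35.

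Of the 3 genes, 0 passed the edgeR test and 0 had an unadjusted p under 0.05, which 1.82% of all genes tested had. DESeq2 and limma called 0 of them as well. Groups without overlap were found for 0 of the 3, against 5.98% of all genes tested. In bulk tissue, fewer cells of a type and less RNA per cell cannot be told apart.

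**Figure D2:**
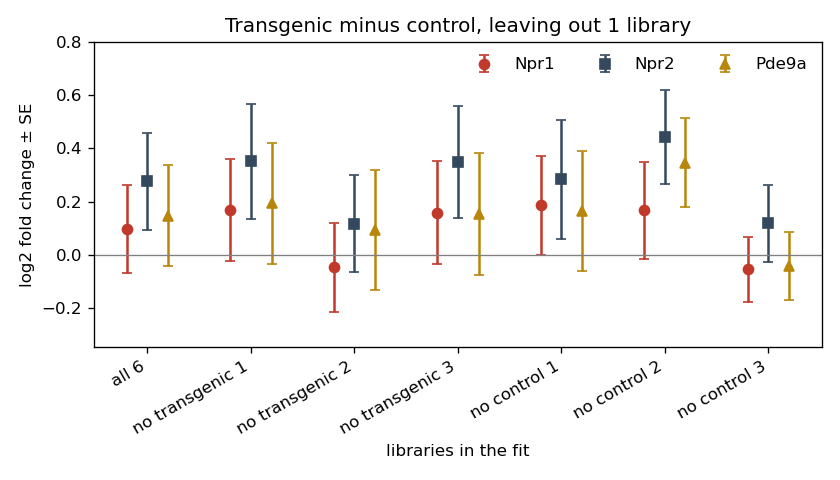
Log2 fold change of transgenic minus control ± SE (y axis) for Npr1, Npr2 and Pde9a with all 6 libraries and with 1 library left out (x axis). Npr2 stays above 0, between 0.12 and 0.44, while Npr1 is below 0 without transgenic kidney 2 or control 3 and Pde9a is below 0 without control 3.

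The shift of each gene was then set out for single libraries. In transgenic kidney 2, against the mean of the other 2 transgenic kidneys on the log2 scale, Npr1 was 0.40 higher, Npr2 0.44 higher and Pde9a 0.16 higher. Of all genes tested, 2.06% were shifted further up there than Npr1, 1.57% further up than Npr2 and 15.1% further up than Pde9a, whose highest library was control 2. In control 3, against the mean of the other 2 controls, the differences were -0.50 for Npr1, -0.52 for Npr2 and -0.64 for Pde9a. There 6.76%, 5.95% and 2.96% of all genes lay lower than Npr1, Npr2 and Pde9a in turn. Control 2 was shifted the other way against the other 2 controls, by 0.22 for Npr1, 0.46 for Npr2 and 0.54 for Pde9a. In that library 18.7%, 3.88% and 2.28% of all genes lay higher than Npr1, Npr2 and Pde9a in turn.

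The GC content of the transcripts was 57.4% for Npr1, 55.0% for Npr2 and 51.1% for Pde9a. Among genes within 2 percentage points of Npr1 the median shift in control 3 was -0.18, among those near Npr2 it was -0.12, and among those near Pde9a it was 0.02, the same as the median of all genes. Each shift is measured against the other 2 libraries of the group. The medians of the same sets were 0.13, 0.07 and -0.01 in control 2, and 0.06, 0.03 and -0.01 in control 1. In transgenic kidney 2 the medians of these 3 sets of genes lay between -0.01 and 0.02. With a correction for GC content and transcript length, chosen after the data were seen, the log2 fold changes were 0.05 for Npr1, 0.25 for Npr2 and 0.15 for Pde9a, and none passed the test.

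Ratios within a library do not depend on library size. Per kilobase of transcript, the ratio of Npr2 to Npr1 was 1.71, 1.74 and 1.69 in transgenic kidneys 1, 2 and 3, against 1.36, 1.68 and 1.49 in control kidneys 1, 2 and 3. All 3 transgenic ratios lay above all 3 control ratios, though transgenic kidney 3 and control 2 were almost equal. The means were 1.71 ± 0.0275 (SD, n = 3) in transgenic kidneys and 1.51 ± 0.162 (SD, n = 3) in control kidneys, a difference of 0.19 on the log2 scale. The exact permutation test, two-sided, gave p = 0.1, the smallest it can give with 3 samples against 3, and 0.3 after Benjamini-Hochberg adjustment over the 3 ratios computed. Without 1 library the difference lay between 0.11, without control 1, and 0.27, without control 2, and stayed above 0 each time.

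The ratio of Pde9a to Npr1 was 0.961, 0.835 and 1.01 in transgenic kidneys 1, 2 and 3, against 0.814, 1.02 and 0.826 in control kidneys 1, 2 and 3. The groups overlapped, and the exact permutation test gave p = 0.7, or 0.7 adjusted over the 3 ratios. The ratio of Pde9a to Npr2 was 0.563, 0.479 and 0.596 in transgenic kidneys 1, 2 and 3, against 0.598, 0.608 and 0.554 in control kidneys 1, 2 and 3. Transgenic kidney 2, where both receptor genes were highest, had the lowest value of the 6, and the exact permutation test gave p = 0.4, or 0.6 adjusted.

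**Figure D3:**
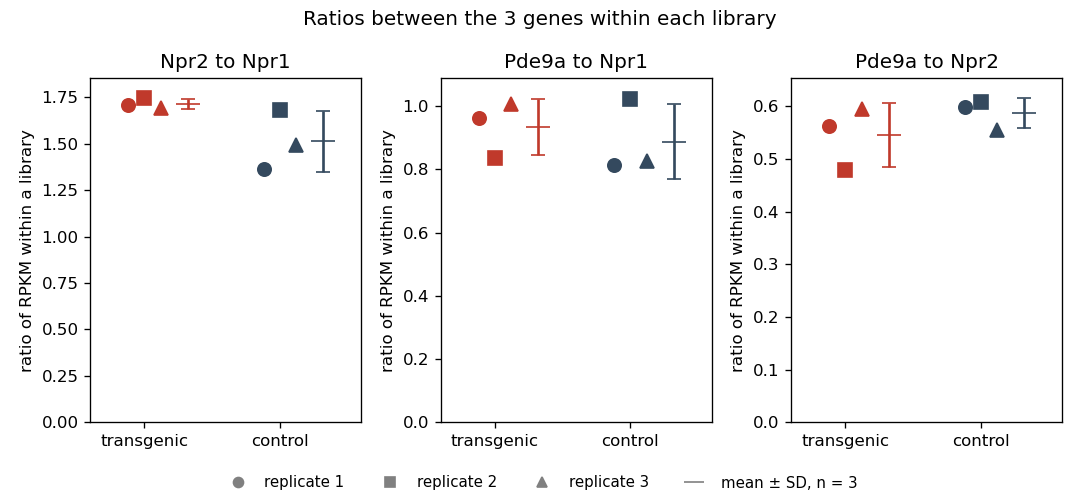
Ratio of the levels of 2 genes per transcript length within each library (y axis, from 0), in transgenic and control kidneys. Points are libraries and bars are mean ± SD (n = 3); the Npr2 to Npr1 ratio is 1.69 to 1.74 in transgenic kidneys and 1.36 to 1.68 in control kidneys, and the other ratios overlap.

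Levels were then compared between genes as reads per kilobase of the longest protein-coding transcript per 1000000 counts (RPKM). Npr2 averaged 17.9 ± 3.26 RPKM in transgenic kidneys and 14.8 ± 3.29 RPKM in control kidneys (SD, n = 3 each). Npr1 averaged 10.4 ± 1.73 RPKM in transgenic kidneys and 9.75 ± 1.83 RPKM in control kidneys (SD, n = 3 each). Pde9a averaged 9.63 ± 0.691 RPKM in transgenic kidneys and 8.71 ± 2.30 RPKM in control kidneys (SD, n = 3 each). Over all 6 libraries Npr2 lay between 11.4 and 21.6 RPKM, Npr1 between 7.64 and 12.4 and Pde9a between 6.32 and 10.9. These ranges overlap, but within each library Npr2 was above Npr1, whereas Pde9a exceeded Npr1 in transgenic kidney 3 and control 2. The order of Pde9a and Npr1 depends on the length used, here 2089 and 4066 bases. All annotated exons hold 3538 bases for Pde9a and 4783 for Npr1, and were not used as lengths. All 3 genes were below the median level of the 6724 genes with a transcript length, 18.6 RPKM. Of these genes, 44.9% were lower than Npr2, 24.8% lower than Npr1 and 21.1% lower than Pde9a.

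**Figure D4:**
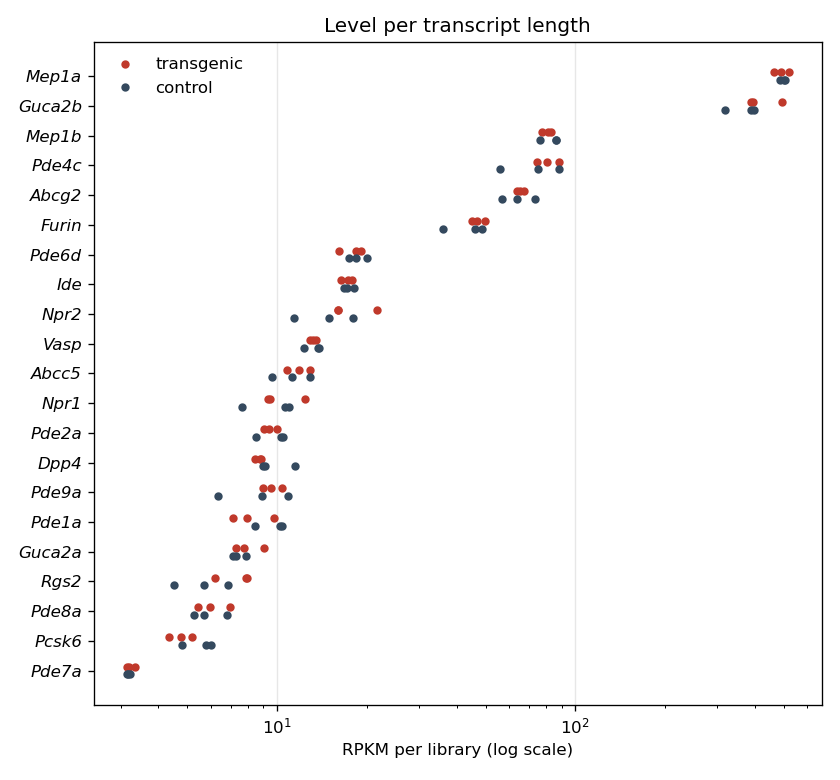
RPKM in each library (x axis, log scale) of the 3 genes and the 18 other listed genes of the pathway, ordered by their mean over 6 libraries. Points are libraries, transgenic above control in each row; Npr2 is 9th, Npr1 12th and Pde9a 15th of 21, each overlapping its neighbours.

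The list of phosphodiesterases that hydrolyse cyclic GMP also holds genes of subunits without catalytic activity, and 4 of its 16 genes are in the table. Pde2a, an enzyme stimulated by cyclic GMP itself, averaged 9.64 RPKM over the 6 libraries, and Pde1a, an enzyme activated by calcium and calmodulin, averaged 8.98 RPKM. Their ranges of 8.52 to 10.5 RPKM and 7.13 to 10.3 RPKM overlapped that of Pde9a. Pde6d, which encodes a prenyl-binding subunit without catalytic activity, averaged 18.2 RPKM. Pde9a made up 34.4%, 35.5% and 35.4% of the summed RPKM of Pde1a, Pde2a and Pde9a in transgenic kidneys 1, 2 and 3, against 30.1%, 36.6% and 25.2% in control kidneys 1, 2 and 3. The shares overlapped, with control 2 highest and control 3 lowest. The log2 fold changes were -0.23 for Pde1a, -0.04 for Pde2a and -0.06 for Pde6d, and none passed the test. Leaving out 1 library moved Pde1a between -0.36, without transgenic kidney 2, and -0.13, without transgenic kidney 1.

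The remaining pathway genes were grouped by role. The natriuretic peptide genes Nppa, Nppb and Nppc and the clearance receptor gene Npr3 were not found by symbol among the listed genes, so they were not analysed here. Of the peptide processing genes, Furin, a protease that can cut the B-type precursor, stood at 216, 196 and 202 CPM in transgenic kidneys, against 199, 212 and 156 CPM in control kidneys (log2 fold change 0.12). Pcsk6, a protease that activates the atrial peptide convertase corin, differed by -0.21 on the log2 scale.

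Of 5 peptidases that can cut natriuretic peptides, 4 are listed and their log2 fold changes lay between -0.18 and -0.01. Mep1a, a meprin subunit of the proximal tubule brush border, had the highest mean level of the pathway genes, at 491 ± 28.2 RPKM in transgenic kidneys and 498 ± 10.2 RPKM in control kidneys (SD, n = 3 each). Dpp4, a dipeptidyl peptidase, was the 1 gene of the 18 other pathway genes whose groups did not overlap, a share near the 5.98% of all genes, at 44.4, 46.2 and 46.5 CPM in transgenic kidneys, against 48.0, 47.2 and 60.4 CPM in control kidneys. Control 3 was the high library there: the log2 fold change was -0.18 with all libraries and -0.060 without control 3, and the difference missed the threshold (adjusted p = 0.997, edgeR).

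Guca2b, which encodes uroguanylin, a ligand of another membrane guanylyl cyclase, stood at 345, 275 and 270.1 CPM in transgenic kidneys, against 278, 270.2 and 222 CPM in control kidneys (log2 fold change 0.21). Transgenic kidney 1 was the high library and control 3 the low one, and the log2 fold change was 0.088 leaving out transgenic kidney 1 and 0.11 leaving out control 3. Its relative Guca2a, guanylin, stood at 4.76 ± 0.547 CPM in transgenic kidneys and 4.40 ± 0.243 CPM in control kidneys (SD, n = 3 each). Its longest protein-coding transcript has 594 bases, and per length it averaged 7.71 RPKM, 17th of the 21 genes. Neither passed the test. The nitric oxide synthase genes and the other guanylyl cyclase genes of the list were not found by symbol among the listed genes, so they were not analysed here.

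Downstream of cyclic GMP, Rgs2, a regulator of G protein signalling that cyclic GMP-dependent kinase phosphorylates, had a log2 fold change of 0.37 ± 0.17 (SE), the largest of the 21 genes with all libraries. It ran from 0.23 without control 3 to 0.52 without control 1, and Npr2 exceeded it without control 2 or without transgenic kidney 1. It stood at 23.8, 24.0 and 18.6 CPM in transgenic kidneys, against 20.7, 17.1 and 13.7 CPM in control kidneys. The groups overlapped, since transgenic kidney 3 lay below control 1, and the difference missed the threshold (adjusted p = 0.997, edgeR). Vasp, a substrate of the same kinase, differed by -0.01, and the cyclic nucleotide exporter genes Abcc5 and Abcg2 by 0.08 and 0.02. The genes Pde4c, Pde7a and Pde8a, whose products are specific for cyclic AMP, differed by 0.15, 0.02 and 0.05. Of these, Pde4c had the highest mean level among the phosphodiesterase genes, at 81.0 ± 7.11 RPKM in transgenic kidneys and 72.9 ± 16.2 RPKM in control kidneys (SD, n = 3 each).

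Of the 18 other pathway genes, 9 were higher and 9 lower in transgenic kidneys, with a median log2 fold change of 0.00, the same as over all 7194 genes. With edgeR, 0 of 18 passed the test and 0 had an unadjusted p under 0.05. DESeq2 called 0 of 18, with 1 at an unadjusted p under 0.05, against 163 of 7194 genes by the same tool. Limma with array weights called 0 of 18, with 2 at an unadjusted p under 0.05, against 634 of 7194 genes.

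**Figure D5:**
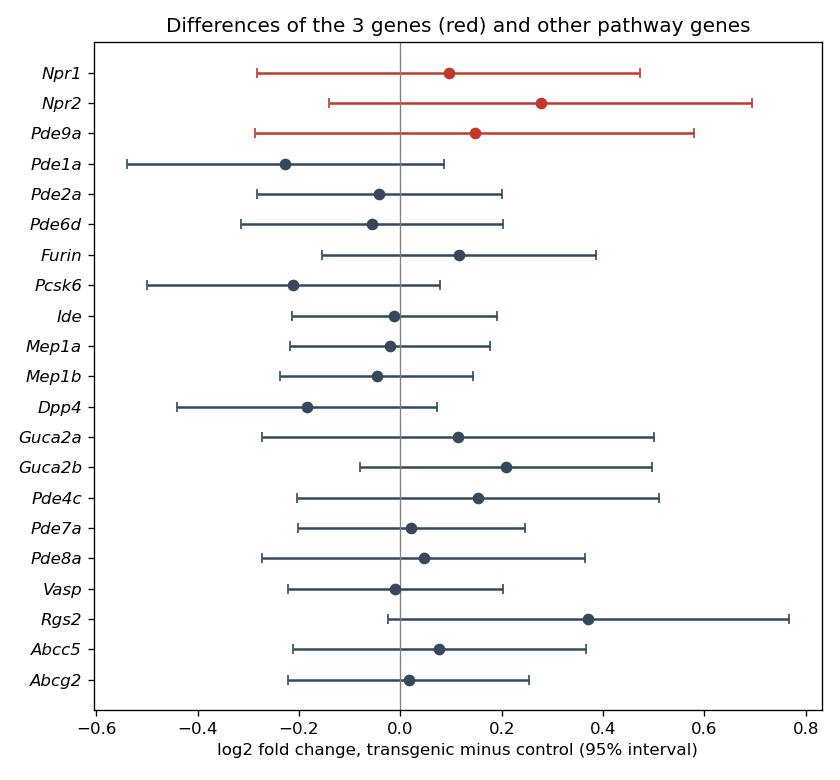
Log2 fold change of transgenic minus control with its 95% interval (x axis) for Npr1, Npr2 and Pde9a in red and the 18 other pathway genes in blue. All 21 intervals include 0, and Rgs2 at 0.37 and Npr2 at 0.28 have the highest values with all 6 libraries.

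Markers of cells known to carry the receptors were set beside these values. NPR-A is known from vessels, among other sites. Of 9 endothelial markers 5 are listed, with sums from 358 to 382 CPM in transgenic kidneys and from 361 to 443 CPM in control kidneys. These sums hide differing directions. Plvap was lower in transgenic kidneys without overlap (log2 fold change -0.30), and Ehd3 (0.32) and Eng (0.08) were higher without overlap. Of all genes tested, 5.98% had groups without overlap. Pecam1 (0.05) and Emcn (-0.30) overlapped, with Emcn at 86.6 CPM in control 3. None of these markers passed the test. The 5 listed smooth muscle and mesangial markers other than Ren1 summed to between 169 and 207 CPM in transgenic kidneys and between 155 and 179 CPM in control kidneys. Their log2 fold changes were 0.43 for Acta2, 0.09 for Tagln, 0.08 for Des, 0.06 for Gata3 and 0.01 for Pdgfrb. In each of them the groups overlapped, and none passed the test. No listed marker of these cell types was at 0 in any library. The part of these cells in the levels of Npr1 and Npr2 was not tested.

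The genes whose log2 CPM followed each of the 3 most closely over the 6 libraries were named by Pearson r, as a description over libraries that share their depth and scaling. For Npr1 they were Trafd1 (r = 0.991), Lpin3 (0.991) and Miip (0.989). For Npr2 they were Tnip2 (0.992), Xab2 (0.990) and Clk4 (0.988). For Pde9a they were Hspb6 (0.997), Zswim8 (0.995) and Lama5 (0.994). Of 7193 genes, 272 had an r above 0.9 with Npr1, 270 with Npr2 and 623 with Pde9a. Without the 2 libraries farthest from the member's median, r of these 9 genes lay between 0.907 and 0.998 over 4 libraries. The 9 genes were chosen by r over the same 6 libraries, which favours a high r here too.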

How the data were processed

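Whole kidneys were halved and frozen, and RNA was column-purified for Illumina libraries, per the labels' protocols. The build was mm10, per the submitters' processing notes. Aligner and counting program were not given in the sources used here. Per the file headers, the table's own filter asked for an NRPKM within 5.0 and 84233.281 in at least 2 of 6 samples, so genes low in nearly every kidney are not listed. The authors deposited estimated counts that are not whole; 41.5% to 53.5% of values under 3000 are multiples of 1/75, within 0.02 of a step. The deposited log2 values equal the log2 of the count less an offset per library and a baseline per gene, within 0.01 for 99.97% of values, and served 1 alternative. A further 12 columns of per-sample values match none of these samples and were not used.

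Estimated counts were rounded. The test was edgeR (version 4.0.16, R 4.3.3) quasi-likelihood fitted to the 2 groups over 7194 genes outside X and Y (filterByExpr dropped 1), with TMM normalization, with Benjamini-Hochberg adjustment and a threshold of 0.05. Of 7373 rows, 7356 had a RefSeq position. SE is the log2 fold change over the square root of F. CPM use TMM library sizes. Gene lengths are from GENCODE vM21. The analysis was tested on simulated data that took the spread of each gene from these libraries. It recovered 56.3% of genes changed 1.5-fold and 98.2% of genes changed 2-fold. Of the genes called there, 7.25% and 7.88% were false, above the threshold of 0.05. The members and lists were chosen with earlier results of these data known. Named genes are the members, the listed pathway genes, and the 3 genes most like each member; Ren1 and the proximal tubule, endothelial and smooth muscle marker lists are given beside results; the other marker lists are not reported here. Alternatives used DESeq2 (version 1.42.0), limma (version 3.58.1), other filters, all genes, a replicate block and each library left out.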

Additional observations from a re-analysis of the deposited data

How the results depend on the processing

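None of the 3 genes passed the threshold in any of the 16 alternatives run for each. The log2 fold change of Npr2 kept its sign in all 16, that of Pde9a in 15 and that of Npr1 in 13. Npr1 was -0.094 with limma voom and array weights, where control 3 had the lowest weight, and ranged from -0.056 to 0.19 leaving out 1 library. Npr2 ranged from 0.12 to 0.44 and Pde9a from -0.044 to 0.35 leaving out 1 library. The cause was not tested. The number of genes called was 1 of 7194 (131 at an unadjusted p under 0.05). It was 2 with DESeq2 (163 unadjusted), 0 with X and Y genes included (112 unadjusted), 0 with limma on the authors' log2 values (134 unadjusted), and 0 to 2 leaving out 1 library: 0 without each of transgenic kidneys 1, 2 and 3 and control 1 (47, 115, 118 and 100 unadjusted), 1 without control 2 (597 unadjusted) and 2 without control 3 (166 unadjusted). It was 1 under the other settings, with 634 unadjusted under limma voom with array weights. Deviations from the group mean correlated at -0.00, -0.03 and 0.33 between same-numbered libraries, and at 0.43 between transgenic kidney 2 and control 1. With 3 libraries per group, these values cannot tell whether the numbers pair the libraries. With the replicate number as a block 1 gene was called (176 unadjusted), and Npr1, Npr2 and Pde9a were at 0.10, 0.29 and 0.18, none of them called; Npr2 had an unadjusted p under 0.05 there and without control 2. The 3 ratios kept their direction in all alternatives run, and with the block the exact permutation p of Npr2 to Npr1 was 0.25, the smallest 3 pairs allow. Leaving out 1 library, other pathway genes near 0 changed sign, with ranges of -0.0050 to 0.20 for Furin, -0.039 to 0.022 for Ide, -0.064 to 0.018 for Mep1a, -0.13 to 0.013 for Pde2a, -0.10 to 0.012 for Pde6d, -0.0064 to 0.31 for Pde4c, -0.0034 to 0.040 for Pde7a, -0.056 to 0.16 for Pde8a, -0.063 to 0.022 for Vasp, -0.024 to 0.19 for Abcc5 and -0.071 to 0.12 for Abcg2.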
